A study of Mus musculus with 12 samples.

Results

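The perineuronal net and lectican matrix genes described here were 10 genes taken by symbol from the count tables: the lecticans Acan, Bcan, Ncan and Vcan, the link proteins Hapln1, Hapln2 and Hapln4, the tenascins Tnr and Tnc, and the receptor phosphatase Ptprz1. They were 10 of 24421 gene symbols listed, and all 10 were among the 15453 genes that passed the filter on low counts. RNA was taken from the dorsal raphe (DR) of 12 mice, 1 library per animal. The 8 STAT3 KO animals (4 females, 4 males) were Sert Cre/+; Stat3 fl/fl, and the 4 controls (2 females, 2 males) were Sert Cre/+; Stat3 fl/+ littermates, so both genotypes carried the Cre allele and controls kept 1 intact Stat3 allele. All were on a mixed C57BL/6 and 129 background, with no treatment in the labels, and the study's mice were 8 to 16 weeks old when experiments began. Cre was driven from Sert (Slc6a4), the serotonin transporter gene, and the deletion was therefore aimed at serotonergic neurons, while the RNA came from a block of DR tissue below the aqueduct that held every other cell type of the region.

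Perineuronal nets are sheets of extracellular matrix that wrap the cell body and proximal dendrites of certain neurons, above all fast-spiking neurons and large projection neurons. Their scaffold is hyaluronan, a long sugar polymer made at the cell surface. Lecticans are chondroitin sulfate proteoglycans that bind hyaluronan at their N-terminal end, link proteins clamp that bond, and tenascins crosslink the far ends of the lecticans. Ptprz1 is a transmembrane receptor phosphatase, made by glia, whose extracellular part carries chondroitin sulfate chains and can anchor tenascin at a membrane. Lecticans and tenascins also occur in loose matrix outside nets, and some link proteins are found at nodes of Ranvier.

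Library depth ranged from 24379588 to 29645210 counts on genes, and 3 counts, the smallest level read here, corresponded to 0.101 to 0.123 CPM, counts per 1000000 gene counts. Stat3 itself did not separate the genotypes in whole tissue, with 65.9 ± 1.26 CPM in controls (SD, n = 4) and 66.6 ± 2.90 CPM in KO (SD, n = 8) and a log2 fold change of -0.0077. A count over the whole gene does not resolve the deleted exons. The serotonergic marker Tph2, the enzyme of serotonin synthesis, was at 539 to 883 CPM in the 12 libraries, and Slc6a4, the gene that carries Cre, at 150.5 to 409.9 CPM. Some libraries stood apart in markers of neighbouring regions: the summed level of 6 forebrain excitatory neuron markers was 250.3 CPM in control 4 and 15.6 to 78.2 CPM in the other 11 libraries, and 5 cerebellar markers summed to 434.5 CPM in KO 16 and 219.9 CPM in KO 10 against 19.3 to 92.4 CPM elsewhere. In bulk tissue, fewer cells of a type and less RNA per cell cannot be told apart.

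Per exon length, the brain lectican Bcan led the 10 genes in the DR. Levels were compared between genes as CPM per kilobase (kb) of annotated exon, averaged over the 12 libraries. Bcan (brevican) stood at 76.0 ± 5.02 CPM per kb (SD, n = 12), above the next gene in 12 of 12 libraries. Hapln4 followed at 41.6 ± 5.31 and Hapln2 at 37.9 ± 4.23 CPM per kb. Both are link proteins, and their ranges overlapped, with Hapln4 above Hapln2 in 9 of 12 libraries.

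Ptprz1 reached 17.7 ± 1.97 CPM per kb and Ncan (neurocan) 12.4 ± 1.23, with touching ranges but Ptprz1 above Ncan in every library. Further down came Tnr (tenascin-R) at 3.78 ± 0.660 CPM per kb, Hapln1 at 3.25 ± 0.473 and Vcan (versican) at 2.34 ± 0.178, each with a range that overlapped the next. Acan (aggrecan), the lectican most tightly tied to nets, was at 1.77 ± 0.430 CPM per kb, and its range overlapped that of Vcan although Vcan was above it in 11 of 12 libraries. Tnc (tenascin-C), a tenascin of the developing and injured brain, was lowest at 0.576 ± 0.165 CPM per kb. Together the 10 genes took 0.0938% to 0.110% of the gene counts of a library.

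**Figure D1:**
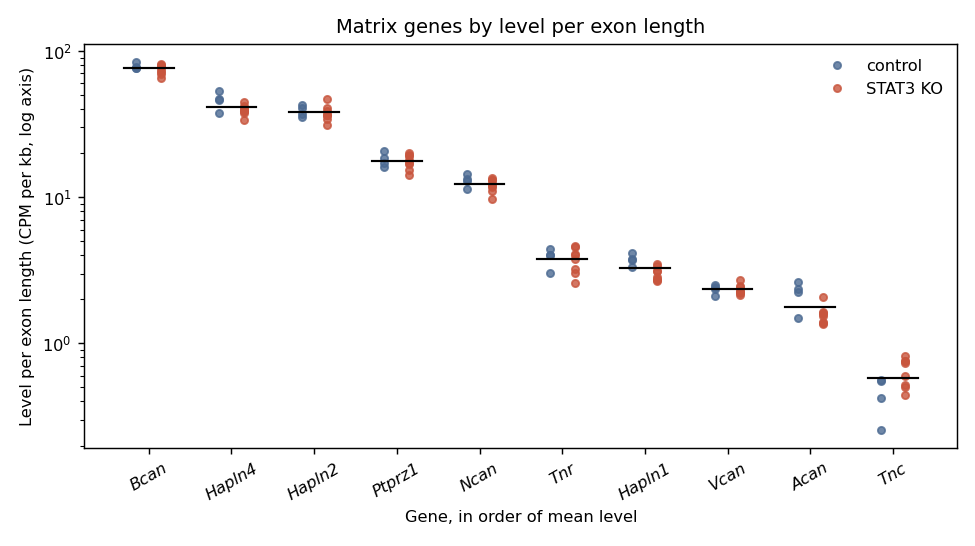
Level per exon length of the 10 matrix genes on a log axis, in CPM per kb of exon; each point is 1 library and the line is the mean of 12. Bcan stands above all other genes, at 76.0 CPM per kb on average, and Tnc is lowest at 0.576.

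The comparison between genotypes asked whether loss of STAT3 from SERT-expressing cells was accompanied by other levels of matrix genes in the DR. Acan, Hapln1 and Hapln4 lay lower in KO and Tnc lay higher, but no member passed the test after adjustment over all genes. With edgeR's quasi-likelihood test, 0 of 10 members had an adjusted p below 0.05, as had 0% of all 15453 genes tested. DESeq2 and limma-voom also called 0 of the 10, while over all genes DESeq2 called 6 and limma-voom 0. At an unadjusted p below 0.05, the quasi-likelihood test held 4 of 10 members against 7.66% of all genes, 3 of them lower in KO against 4.05% and 1 higher against 3.61%. Of the 10 log2 fold changes (KO minus control), 9 were below 0 with a median of -0.081, beside 50.6% below 0 and a median of -0.0011 over all genes tested. By the exact two-sided permutation test on log2 CPM over all 495 ways to assign 4 and 8 libraries (smallest p possible 0.00202), 3 of 10 members had p below 0.05 against 7.23% of all genes. The genotypes did not separate fully for any member, and 0.492% of all genes had groups that did not overlap.

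Among the lecticans, Acan (chr7:79053483-79115099, plus strand) differed most. Its level was 19.6 CPM in control 3, 11.1 in control 4, 16.7 in control 11 and 17.5 in control 13, while the 8 KO libraries ran from 10.1 over a median of 11.6 to 15.4 CPM. All 8 KO libraries were below the control mean, and the groups overlapped through control 4 alone, which was as low as the KO animals. KO 15 was the highest of its group and lay below the other 3 controls. The means were 16.2 ± 3.63 CPM (SD, n = 4) and 11.7 ± 1.72 CPM (SD, n = 8). The log2 fold change was -0.49 (SE 0.13, 95% interval -0.77 to -0.20), a change of -28.7% in KO. Its adjusted p was 0.615 by edgeR's quasi-likelihood test, with an unadjusted p of 0.00225 that 0.278% of all genes reached, and the exact permutation p was 0.0182. Without control 4 the log2 fold change was -0.63 (adjusted p = 0.0789, and 0.0789 to 0.979 over all libraries left out), and without control 3 it was -0.38 with an exact permutation p of 0.0545.

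The other 3 lecticans showed small differences. Bcan (chr3:87987531-88000230, minus strand) was at 317, 309.9, 308 and 339 CPM in controls 3, 4, 11 and 13 and at 267 to 329 CPM in KO, with a median of 308. Its log2 fold change was -0.088 (95% interval -0.21 to 0.029, adjusted p = 0.764), or -0.056 without control 13, and 4 KO libraries lay below every control. Ncan (chr8:70093085-70120873, minus strand) was at 82.3 CPM in control 3 to 102.7 CPM in control 4 and at 70.3 to 96.9 CPM in KO, with a median of 87.5. Its log2 fold change was -0.13 (95% interval -0.29 to 0.033, adjusted p = 0.746), and -0.077 without control 4. Vcan (chr13:89655312-89742509, minus strand) differed least of all, at 30.5 to 36.5 CPM in controls and 30.8 to 39.5 CPM in KO, with a log2 fold change of -0.030 (95% interval -0.17 to 0.11, adjusted p = 0.960). A change of Vcan in either direction of more than 0.17 on the log2 scale lay outside its interval.

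Of the link proteins, 2 lay lower in KO without passing adjustment. Hapln1 (chr13:89539796-89611652, plus strand), the link protein first known from cartilage and needed for compact nets, was at 24.5 CPM in control 3, 19.5 in control 4, 21.9 in control 11 and 22.4 in control 13. KO libraries ranged from 15.7 to 20.5 CPM with a median of 17.5, all below the control mean and 6 of 8 below every control, and only KO 6 and KO 8 reached into the control range through control 4. The means were 22.1 ± 2.06 and 17.7 ± 1.81 CPM, a log2 fold change of -0.34 (SE 0.081, 95% interval -0.51 to -0.16). The adjusted p was 0.615 and the unadjusted p 0.000822, the smallest of the 10 members, and 0.0841% of all genes had one as low. Its exact permutation p was 0.00808, and it stayed at or below 0.0364 when any 1 library was left out.

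Hapln4 (chr8:70083457-70090862, plus strand), a link protein of perisynaptic matrix on brainstem and cerebellar neurons, was far more abundant. It was at 208 CPM in control 3, 147 in control 4, 182 in control 11 and 183 in control 13, and at 132 to 176 CPM in KO with a median of 153. As for Acan, control 4 lay within the KO range and all 8 KO libraries were below the control mean. The log2 fold change was -0.24 (SE 0.079, 95% interval -0.41 to -0.075), with an adjusted p of 0.615 and an exact permutation p of 0.0525. Without control 4 it was -0.33 with an exact permutation p of 0.00606, without KO 15 that p was 0.0212, and without control 3 the log2 fold change was -0.16. Hapln2 (chr3:88021750-88027583, minus strand), the link protein of nodes of Ranvier made by oligodendrocytes, was at 83.6 to 100.3 CPM in controls and 73.2 to 111 CPM in KO, with a log2 fold change of -0.072 (95% interval -0.26 to 0.11, adjusted p = 0.904) that moved to -0.12 without KO 6 or -0.022 without control 3.

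Neither tenascin passed adjustment. Tnc (chr4:63959785-64047015, minus strand) was at 1.99 CPM in control 3, 4.31 in control 4, 3.28 in control 11 and 4.35 in control 13. KO libraries ranged from 3.47 to 6.32 CPM with a median of 5.15, 7 of 8 above the control mean and 5 of 8 above every control. The log2 fold change was 0.49 (SE 0.21, 95% interval 0.055 to 0.93), with an adjusted p of 0.620 and an exact permutation p of 0.0485. This difference leaned on control 3, the lowest library, without which the log2 fold change was 0.30 and the unadjusted p no longer lay below 0.05, as was also the case without control 11, KO 7, KO 10 or KO 16. Its exact permutation p was 0.0273 to 0.206 with each library left out. Tnr (chr1:159523769-159931729, plus strand), the tenascin of mature nets, spread widely in both genotypes, at 39.2 to 57.1 CPM in controls and 33.5 to 59.3 CPM in KO. Its log2 fold change was -0.074 (95% interval -0.37 to 0.22, adjusted p = 0.953).

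Both tenascins share exon bases with a gene on the opposite strand, 443 bases for Tnr and 176 for Tnc. Neither of these overlapping genes is among the gene symbols counted. The use of strand in counting is not given in the sources used here. Ptprz1 (chr6:22875502-23052916, plus strand) was at 265, 245, 296 and 228 CPM in controls 3, 4, 11 and 13 and at 203 to 286 CPM in KO, with a median of 250.4. Its log2 fold change was -0.073 (95% interval -0.26 to 0.12, adjusted p = 0.906). Summed over the 10 genes, controls held 1009 to 1105 CPM and KO libraries 938 to 1077 CPM, so the totals overlapped.

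**Figure D2:**
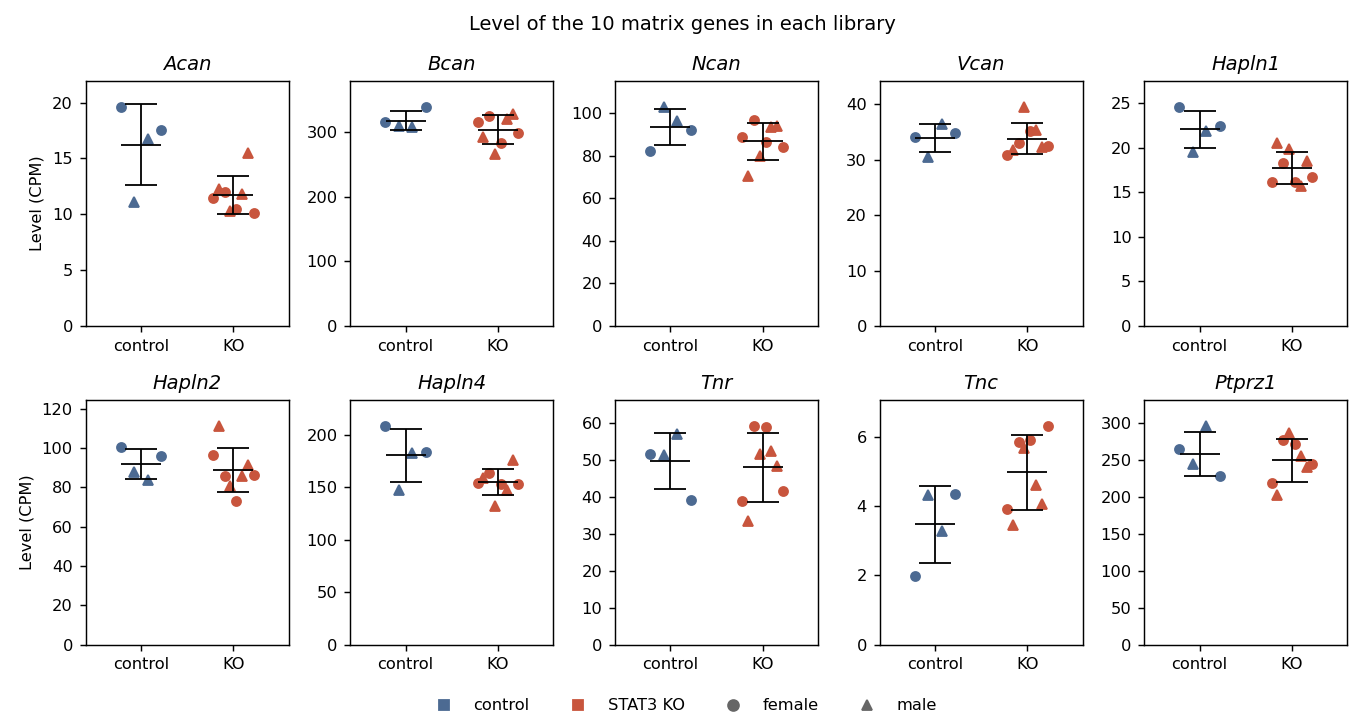
CPM of each matrix gene in every library, with axes from 0; circles are females, triangles males, and bars the mean ± SD of 4 controls and 8 STAT3 KO. The KO points of Acan, Hapln1 and Hapln4 all lie below the control mean, and 7 of 8 KO points of Tnc lie above it.

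Sex was balanced across the genotypes and was tested for the members from the same counts. No member differed between males and females in a model with genotype, with 0 of 10 below an adjusted p of 0.05 (13 genes, or 0.0841%, of all tested) and 0 of 10 below an unadjusted p of 0.05 (7.2% of all). DESeq2 called 24 genes for sex and none of them was a member. The genotype difference itself was set against sex by an interaction term, for which 0 of 10 members and 0% of all genes passed adjustment by edgeR, while DESeq2 called 2 genes, none of them a member. At an unadjusted p below 0.05, 2 of 10 members had an interaction, Acan and Hapln1, against 5.49% of all genes.

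In females, Acan was at 17.5 and 19.6 CPM in the 2 controls and at a median of 10.9 CPM in the 4 KO animals, all of them below both controls, a log2 fold change of -0.78 (SE 0.16). In males it was at 11.1 and 16.7 CPM in controls and at 10.3 to 15.4 CPM in KO, a log2 fold change of -0.17 (SE 0.16). The interaction of Acan had an unadjusted p of 0.0204 and an adjusted p of 0.907, and control 4 was 1 of the 2 male controls. Hapln1 went the same way, with -0.51 (SE 0.10) in females and -0.17 (SE 0.10) in males and an adjusted p of 0.907 for the interaction. For Acan, Hapln1 and Hapln4 the female groups did not overlap, 3 of 10 members beside 22.3% of all genes, and for Ncan the male groups did not overlap, 1 of 10 beside 9.38%.

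**Figure D3:**
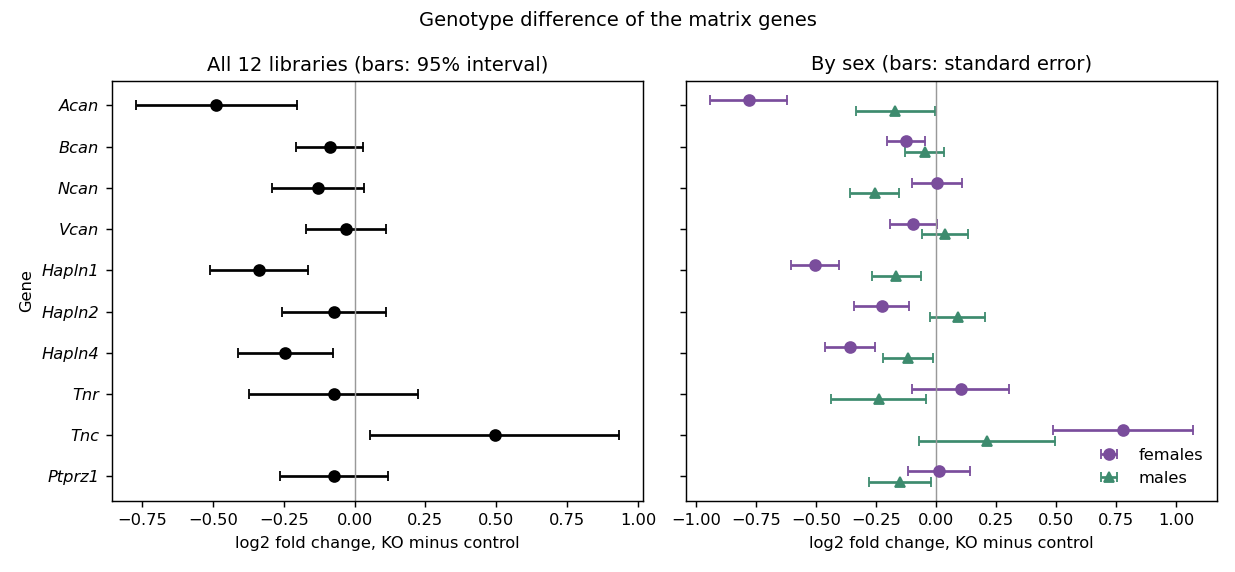
Log2 fold change of each matrix gene, KO minus control, over all 12 libraries with 95% intervals (left) and by sex with standard errors (right). The intervals of Acan, Hapln1 and Hapln4 lie below 0 and that of Tnc above 0 before adjustment, and Acan was at -0.78 in females and -0.17 in males.

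Some of the matrix genes moved together from animal to animal. Over the 45 pairs of members, Pearson's r of log2 CPM ran from -0.77 to 0.93 with a median of 0.10, and 6 pairs had a permutation p below 0.05 after adjustment over the 45. The strongest was Acan with Hapln4 (r = 0.930, Spearman's rho = 0.867, n = 12, permutation p = 2e-05 for r, the smallest of the 45 pairs, adjusted p = 0.0009 for r and 0.00945 for rho). Control 3 was the highest of the 12 libraries for both genes, and control 4 was the lowest control for both. Without the 2 libraries farthest from the median of Acan, r was 0.859, and in the 8 KO libraries alone it was 0.769, and neither passed adjustment with these fewer libraries (permutation test, adjusted p = 0.0684 and 0.197, and 0.00112 to 0.197 over the alternatives).

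Acan also followed Hapln1 (r = 0.760, rho = 0.643, permutation p = 0.00471 and 0.0289, adjusted p = 0.0353 and 0.158), but r was 0.507 without the 2 farthest libraries and 0.257 in KO alone, so the relation did not hold without those libraries or within KO. Tnc ran against Acan (r = -0.774, rho = -0.727, permutation p = 0.00227 and 0.0101, adjusted p = 0.0340 and 0.0755), with r = -0.721 without the 2 farthest libraries and r = -0.635 in KO, neither past adjustment (adjusted p = 0.207 and 0.234, and 0.0373 to 0.234 over the alternatives). Of these 3 relations, that of Acan with Hapln4 alone passed by both r and rho.

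A second set joined Tnr and Ptprz1, with r = 0.904 and rho = 0.888 (permutation p = 7e-05 and 0.00022, adjusted p = 0.00157 and 0.00945). Without the 2 libraries farthest from the median of Tnr r was 0.790 and did not pass adjustment (adjusted p = 0.125, and 0.00112 to 0.125 over the alternatives), and it was 0.915 in KO alone, where it did (adjusted p = 0.0441). Hapln2 ran against both, with r = -0.760 and rho = -0.783 for Tnr (permutation p = 0.00306 and 0.00342, adjusted p = 0.0344 and 0.0417) and r = -0.747 and rho = -0.783 for Ptprz1 (permutation p = 0.0044 and 0.00371, adjusted p = 0.0353 and 0.0417). These were -0.520 and -0.633 without the 2 farthest libraries and -0.857 and -0.892 in KO. With TMM scaling they were -0.697 and -0.678, and neither passed adjustment (adjusted p = 0.0648 and 0.0715, and 0.0564 to 0.445 and 0.0441 to 0.330 over the alternatives). Over the 12 libraries no pair of Acan or Hapln4 with Tnr or Ptprz1 had an r above 0.038 in size, while in KO alone r was -0.340 for Acan and Ptprz1 and -0.398 for Hapln4 and Ptprz1. Tnc, which ran against Acan, had values with the second set that did not pass adjustment. Against Hapln2 it was at r = -0.632 and rho = -0.601 (permutation p = 0.0293 and 0.0434, adjusted p = 0.120 and 0.163), with r = -0.644 without the 2 farthest libraries and r = -0.825 in KO. With Ptprz1 its r was 0.142 and rho 0.231 over the 12 libraries (permutation p = 0.662 and 0.470, adjusted p = 0.888 and 0.847), with r = 0.468 without the 2 farthest and r = 0.825 in KO.

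The level of long against short transcripts in a library moved with Tnr by r, but not by rho after adjustment. Tnr, Ptprz1 and Vcan have the longest exon totals of the members, at 12867, 14245 and 14462 bases, and Hapln2 the shortest at 2371. A per-library measure of long transcripts was formed, after the pairs had been seen, as the median log2 deviation of 1417 genes with at least 10000 exon bases minus that of 1983 genes under 2000. It ranged from -0.0098 to 0.074 in controls and from -0.14 to 0.12 in KO. Tnr followed it with r = 0.762 and rho = 0.692 (permutation p = 0.00384 and 0.0155, adjusted over the 10 members 0.0384 and 0.155), and with r = 0.542 without its 2 farthest libraries. For Ptprz1 the values were r = 0.646 and rho = 0.517 (permutation p = 0.0231 and 0.0886, adjusted p = 0.116 and 0.322, r = 0.391 without the 2 farthest), and for Vcan r = 0.227 and rho = 0.378 (permutation p = 0.478 and 0.226, adjusted p = 0.597 and 0.322, r = 0.229 without the 2 farthest). Hapln2 was at r = -0.411 and rho = -0.266 (permutation p = 0.182 and 0.402, adjusted p = 0.354 and 0.503, r = -0.041 without the 2 farthest). The other 6 members had r of -0.000052 to 0.544 and adjusted p of 0.230 to 0.9999, Ncan being the highest of them. The part of transcript length or RNA quality in the relation of Tnr and Ptprz1 was not tested.

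**Figure D4:**
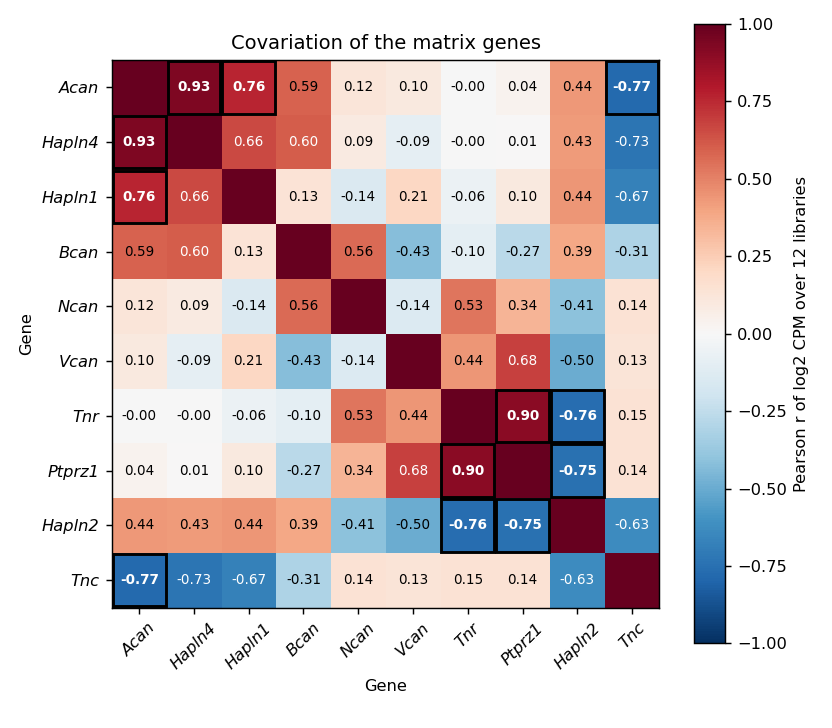
Pearson's r of log2 CPM for the 45 pairs of matrix genes over 12 libraries, coloured from -1 to 1; boxed cells are the 6 pairs with an adjusted permutation p below 0.05. Acan and Hapln4 form the strongest pair at 0.93, and Hapln2 runs against Tnr and Ptprz1.

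The upstream sequences of Acan, Tnr and Ptprz1 are given because these genes were in the pairs with the highest r. Of the 10 members, 9 matched the RefSeq promoter table of the GRCm38.p6 build, which is the build of the mm10 assembly used for mapping, with 1 start site each and 2 for Tnc; Hapln4 had no entry. Acan, Tnr and Ptprz1 are shown as the 250 bases before the RefSeq start site, 5′ to 3′ on the plus strand. Each window lies before the GENCODE start of its own gene, and exons of other genes were not compared with it. Capitals mark matches on either strand to GGGCGG (the GC box) or CCAAT (the CCAAT box); a search for TATAAA (the TATA box) found no match in these 3 windows.

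Acan chr7:79052976-79053225: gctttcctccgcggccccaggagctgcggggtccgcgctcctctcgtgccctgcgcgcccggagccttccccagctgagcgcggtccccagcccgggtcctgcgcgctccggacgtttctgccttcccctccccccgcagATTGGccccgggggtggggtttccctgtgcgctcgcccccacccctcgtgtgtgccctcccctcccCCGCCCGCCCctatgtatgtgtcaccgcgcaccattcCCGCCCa

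Tnr chr1:159523519-159523768: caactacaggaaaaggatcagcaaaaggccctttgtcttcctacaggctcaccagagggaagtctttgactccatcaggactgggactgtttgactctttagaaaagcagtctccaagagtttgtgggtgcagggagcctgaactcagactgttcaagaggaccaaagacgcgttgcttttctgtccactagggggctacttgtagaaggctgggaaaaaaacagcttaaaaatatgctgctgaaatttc

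Ptprz1 chr6:22875252-22875501: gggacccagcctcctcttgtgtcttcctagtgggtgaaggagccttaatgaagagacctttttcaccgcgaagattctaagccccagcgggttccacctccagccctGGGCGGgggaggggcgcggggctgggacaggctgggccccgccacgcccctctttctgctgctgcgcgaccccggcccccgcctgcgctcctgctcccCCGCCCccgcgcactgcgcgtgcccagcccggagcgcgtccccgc

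The Acan window held 3 GC box matches and 1 CCAAT match, at 74.4% G and C, and 2 of its GC box matches overlap in 1 run of capitals. The Ptprz1 window held 2 GC box matches at 71.6% G and C, and the Tnr window held no match at 46.8% G and C, beside a median of 52.4% over all 32851 promoters in the table. The palindrome TTCNNNGAA, the form bound by STAT dimers, was in 0 of the 10 member windows and in 7.02% of all promoters of the same length. The GC box was in 7 of 10 member windows and 32.7% of all, CCAAT in 4 of 10 and 33.8%, and TATAAA in 3 of 10 and 12.4%. The 2 Tnc windows overlap and share their GC box and TATA box, and by gene the counts were 6 of 9, 4 of 9 and 2 of 9. A match of letters is a description, and no match says only that these letters are not in this window.

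Lecticans and link proteins lie side by side in the genome, and 3 such pairs were among the members. Ncan and Hapln4 are 2222 bases apart on chromosome 8, Bcan and Hapln2 21519 bases apart on chromosome 3, and Vcan and Hapln1 43659 bases apart on chromosome 13. Over the 12 libraries the neighbours gave r = 0.088 and rho = 0.084 for Ncan and Hapln4 (permutation p = 0.784 and 0.8, r = 0.265 without the 2 farthest libraries). For Bcan and Hapln2 r was 0.386 and rho 0.378 (permutation p = 0.214 and 0.226, r = -0.21 without the 2 farthest), and for Vcan and Hapln1 r was 0.206 and rho 0.140 (permutation p = 0.524 and 0.669, r = 0.258 without the 2 farthest). Adjusted p was 0.418 to 0.888 for r and 0.509 to 0.891 for rho, so no covariation of neighbours was shown.

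Markers of cell types moved with several members. Lists of 10 cell types were written with earlier results of these data known. Each library's mean log2 deviation over a list was set against the 10 members, 100 relations in all. By r 4 of these passed adjustment, and that of Tnc with astrocytes did not pass by rho. The list of fast-spiking and large projection neurons (Pvalb, Kcnc1, Syt2, Nefh, Nefm, Vamp1, Scn4b and Kcna1, among them parvalbumin, fast potassium channels and neurofilaments) followed Acan at r = 0.940 and rho = 0.867 (permutation p = 4e-05 and 0.00046, adjusted p = 0.00200 and 0.0153). It followed Hapln4 at r = 0.942 and rho = 0.902 (permutation p = 2e-05 and 0.00012, adjusted p = 0.00200 and 0.00650). Without the 2 farthest libraries r was 0.887 and 0.868, and in the 8 KO libraries alone 0.825 and 0.787. These values from fewer libraries were not tested. For Hapln1 r was 0.768 and rho 0.650 (permutation p = 0.00334 and 0.0257, adjusted p = 0.0557 and 0.346), with r = 0.506 without the 2 farthest and r = 0.401 in KO.

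The same list leaned lower in KO, the direction of Acan, with summed levels that overlapped between the genotypes. All 8 of its genes had log2 fold changes below 0, with a median of -0.28, and 6 had an unadjusted p below 0.05 by edgeR, but none passed adjustment (adjusted p 0.615 to 0.837). Over all genes tested 50.6% were below 0 and 7.66% had such a p, and other lists were one-sided too, with oligodendrocytes at 8 of 8 below 0 (1 at an unadjusted p below 0.05), forebrain markers at 6 of 6 below 0 (2) and cerebellar markers at 5 of 5 above 0 (3). Its summed level was 4767 CPM in control 3, 3089 in control 4, 4067 in control 11 and 4069 in control 13, and 2861 to 3946 CPM in KO with a median of 3317. The highest KO library for the list was KO 15, which was also the highest for Acan and Hapln4. None of the 8 markers was at 0 across the 12 libraries. The part of these neurons in the differences of Acan, Hapln1 and Hapln4 was not tested.

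**Figure D5:**
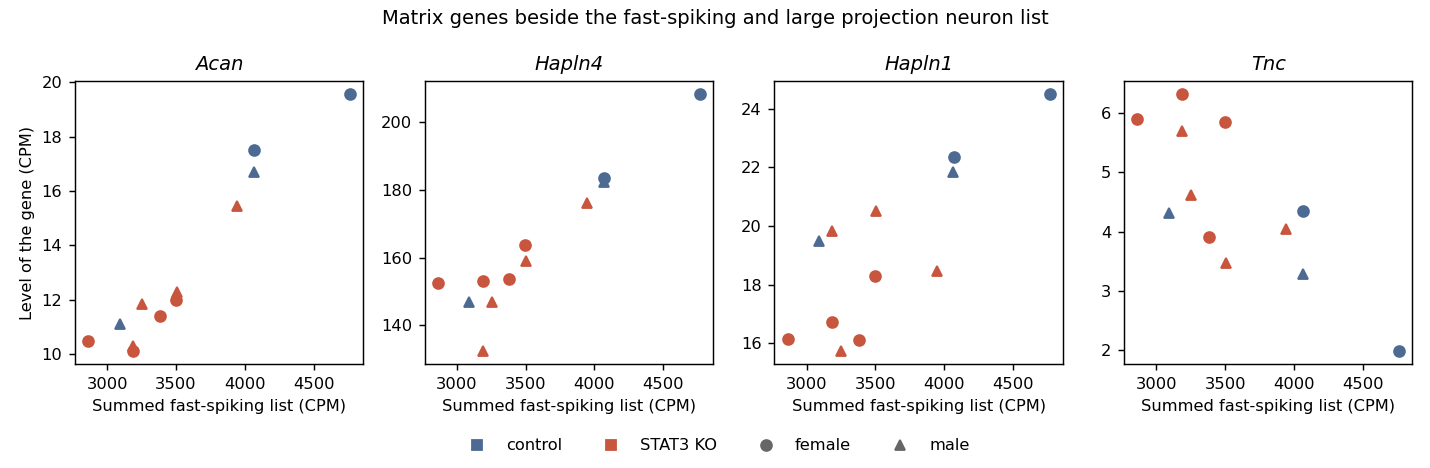
CPM of Acan, Hapln4, Hapln1 and Tnc against the summed CPM of 8 markers of fast-spiking and large projection neurons, 1 point per library. Acan and Hapln4 rise with the marker sum in both genotypes. Control 3 has the highest marker sum, at 4767 CPM, with the highest Acan, Hapln4 and Hapln1 and the lowest Tnc. Control 4 lies among the KO libraries.

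Of the glial lists, astrocytes alone passed adjustment, with Hapln2 by both r and rho and with Tnc by r only. The oligodendrocyte, precursor and microglia lists passed with no member. Astrocyte markers (8 genes, among them the water channel Aqp4 and the glutamate transporters Slc1a2 and Slc1a3) followed Tnc at r = 0.820 and rho = 0.755 (permutation p = 0.00113 and 0.00652, adjusted p = 0.0282 and 0.130, r = 0.606 without the 2 farthest libraries and 0.889 in KO). They ran against Hapln2 at r = -0.888 and rho = -0.909 (permutation p = 0.0002 and 0.00013, adjusted p = 0.00667 and 0.00650, r = -0.864 without the 2 farthest and -0.965 in KO). Hapln2 showed no such relation with the oligodendrocyte list (r = 0.047 and rho = 0.028, permutation p = 0.886 and 0.938, adjusted p = 0.987 and 0.976, r = 0.176 without the 2 farthest), although oligodendrocytes are its known source. Summed astrocyte markers were at 2531 to 2778 CPM in controls and 2552 to 2863 CPM in KO. The whole list had 5 of 8 genes above 0 in log2 fold change and 0 called. By edgeR 2 of the 8 had an unadjusted p below 0.05, 1 higher and 1 lower in KO. Hapln2 also ran against the motor neuron list of the neighbouring nuclei at r = -0.782 and rho = -0.797 (permutation p = 0.00302 and 0.00294, adjusted p = 0.0557 and 0.0735, r = -0.699 without the 2 farthest), a list that was lowest in KO 6, where Hapln2 was highest. With the cerebellar list, which was highest in KO 16 and KO 10, Tnc had r = 0.299 and rho = 0.559 over the 12 libraries (permutation p = 0.343 and 0.0625, adjusted p = 0.751 and 0.387, r = -0.271 without the 2 farthest) and r = 0.810 in KO. The part of astrocyte or cerebellar content in the Tnc difference was not tested.

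The genes most like each member, taken as the 3 outside the 10 with the highest r of log2 CPM over the 12 libraries, are given as a description. For Acan they were Phospho1, a phosphatase (r = 0.966), Scn4b, a sodium channel subunit (r = 0.957), and Kcnab2, a potassium channel subunit (r = 0.948). For Hapln4 they included Fam57b (r = 0.956) and again Phospho1 (r = 0.951). Scn4b was itself on the fast-spiking list. Hapln1 was most like Mgst3 (r = 0.912), Nrn1 (r = 0.909) and Snap25, a synaptic vesicle fusion protein (r = 0.903). Tnr was most like Mtmr9, the potassium channel Kcnma1 and Macrod2 (r = 0.949 to 0.958), and Ptprz1 most like Ckap5, Mkln1 and Usp9x (r = 0.947 to 0.968).

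Tnc was most like Stk32a (r = 0.930), Gm15446 (r = 0.915) and Hoxd13 (r = 0.907), the last at no more than 0.829 CPM. The lecticans other than Acan had no gene in common with it. For Bcan the 3 were Pde4a, Mir377 and Card10 (r = 0.903 to 0.910), with Mir377 at no more than 0.779 CPM. For Ncan they were Apba2 and the protocadherins Pcdhga11 and Pcdhga12 (r = 0.877 to 0.895), the last pair sharing exons within 1 gene cluster, and for Vcan Dmxl1, Mid2 and Dzank1 (r = 0.896 to 0.940). Hapln2 was most like Rtkn, Dtnbp1 and Crybb1 (r = 0.900 to 0.923).

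Beyond the members, 60 genes that build, cut or bind the matrix were read from the same fit, and 56 of them passed the filter. Of these, 0 passed adjustment and 4 had an unadjusted p below 0.05, 2 lower and 2 higher in KO, with a median log2 fold change of -0.019. That share lay close to the 7.66% of all genes tested. Among 19 tested genes of chondroitin sulfate chain synthesis and sulfation, 14 were below 0, and B4galt7, the enzyme that adds the first galactose of the linker, was lowest in p. It was at 20.2 to 21.4 CPM in controls and at 16.9 to 20.9 CPM in KO, with 7 of 8 KO libraries below every control (log2 fold change -0.12, SE 0.053, adjusted p = 0.633). The hyaluronan genes numbered 9, with 5 below 0. Cd44, a hyaluronan receptor, was at 1.73, 1.15, 1.26 and 1.64 CPM in controls 3, 4, 11 and 13 and at 1.32 to 2.75 CPM in KO, 5 of 8 above every control (log2 fold change 0.43, SE 0.19, adjusted p = 0.646).

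Of 11 proteases and inhibitors tested, 7 were above 0. Adamts15, a protease that cuts lecticans, was at 5.26, 6.57, 7.17 and 6.23 CPM in the same controls and at 6.78 to 8.98 CPM in KO, with 8 of 8 above the control mean (log2 fold change 0.25, SE 0.10, adjusted p = 0.617). Adamts4, a protease of the same kind, had a log2 fold change of -0.17 (SE 0.096, adjusted p = 0.732), with all 8 KO libraries below the control mean, and of -0.089 without control 3. The 13 receptors and ligands held the remaining named genes. Rtn4rl2, a relative of the Nogo receptor, was at 4.81 CPM in control 4 and at no more than 1.14 CPM in the other 11 libraries, so its log2 fold change of -1.18 (SE 0.47, adjusted p = 0.615) became 0.075 without control 4, the library high in forebrain markers.

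Its relatives Rtn4rl1 and Rtn4r were likewise highest in control 4, at 22.9 and 19.4 CPM, with log2 fold changes of -0.25 (SE 0.12, adjusted p = 0.652) and -0.37 (SE 0.21, adjusted p = 0.718) that became -0.11 and -0.025 without it. Mdk (midkine), a ligand of Ptprz1, had a log2 fold change of 0.18 (SE 0.097, adjusted p = 0.711), with 6 of 8 KO libraries above the control mean. The 4 other link protein and proteoglycan genes tested were split, 2 above and 2 below 0. Tnn, Chst13, Mmp3 and Timp1 did not pass the filter, with at most 0.337 CPM in any library.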

How the data were processed

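RNA-seq of the DR was carried out by the authors with 1 library per animal from 4 controls and 8 STAT3 KO, as single reads of 75 bases mapped with STAR 2.5.0b to mm10, per the labels and the methods. The deposited files hold raw read counts per gene symbol, without normalisation; the counter, annotation and strand setting are not given in the sources used here. Reads assigned to no single gene (13.9% to 15.8% of a library) were left out. Genotype, sex and animal number were taken from the labels. Exon lengths and positions came from GENCODE M21 (GRCm38).

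Genes were tested with edgeR 4.0.16 (R 4.3.3; TMM factors of 0.988 to 1.01, a minimum of 10 counts by the tool's filter, no covariate), with Benjamini-Hochberg adjustment over 15453 genes. DESeq2 1.42.0 and limma-voom (limma 3.58.1) were alternatives, as were other scalings, filters, a sex term and leaving out each library. Exact permutation tests and correlations used log2 CPM by library totals with a prior count of 2; correlations were tested with 100000 resamples. The main test was checked on simulated counts with known changes, and its power for changes of the size seen here is not given. The members and all gene lists were chosen with earlier results of these data known. Named were the 10 members, the 8 other matrix genes with the lowest p, the 3 genes most like each member, and Stat3, Slc6a4 and Tph2 as checks. One gene that this rule names is not reported here. P-values measure the spread between animals, with both sexes in each genotype.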

Additional observations from a re-analysis of the deposited data

Results flagged for a closer look

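The Acan level of KO 15 stood apart from the other 7 KO libraries. At 15.4 CPM it was the highest of the group, and its gap to the next library took 0.54 of the whole range of the group on the log2 scale. The same library was highest of the KO group for Hapln4 and for the summed fast-spiking and large projection neuron markers. Each member was examined in each genotype, 20 groups in all, of which about 1 would stand apart by chance, and 1 did.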

How the results depend on the processing

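No paired analysis was possible because no animal number occurs in both genotypes. Under DESeq2, limma-voom, other scalings and filters and a sex term, the number of members called stayed at 0, with 3 lower and 1 higher in KO at an unadjusted p below 0.05, and the log2 fold changes kept their direction. Adjusted p over these alternatives was 0.217 to 0.685 for Acan, 0.137 to 0.685 for Hapln1, 0.43 to 0.685 for Hapln4 and 0.614 to 0.685 for Tnc, and with each library left out it was 0.0789 to 0.979, 0.146 to 0.979, 0.145 to 0.979 and 0.433 to 0.99.

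With each library left out, the members higher in KO numbered 0 to 1 (0 without controls 3 or 11 or KO 7, 10 or 16), and those below 0.05 by the exact permutation test 1 to 4 (1 without control 3). The other matrix genes lower in KO numbered 0 to 4 (0 without control 4, 4 without control 11) and those higher 1 to 2; limma-voom gave 1 lower and 1 higher and library totals 1 lower. Log2 fold changes crossed 0 for Vcan (-0.076 to 0.0095), Tnr (-0.17 to 0.0013), Ptprz1 (-0.13 to 0.0034) and Rtn4rl2 (-1.47 to 0.075). So did the permutation differences of Vcan (-0.059 to 0.026), Tnr (-0.17 to 0.0082) and Ptprz1 (-0.11 to 0.016). Of the 6 pairs past adjustment, 4 passed with TMM scaling, 2 in the 8 KO libraries alone (Acan with Hapln4 not among them) and 0 without the 2 libraries farthest from the median; fewer libraries were tested in the last 2. The cause was not tested for the others. With 4 controls, 2 of them per sex, the interaction with sex was the least well resolved comparison.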
